A study of Solanum tuberosum with 36 samples.

Results

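RAB18 (PGSC0003DMG400003531) and CAP160 (PGSC0003DMG400014293) are 2 of the 25289 potato genes in the deposited tables of a leaf drought experiment. They were chosen by their measured reads in these same tables, for a mean that is higher on day 6 than on day 0, is lower again on day 10, and for their place among the induced genes of each cultivar. Those values are therefore given as a description, with no test. RAB18 was also the RT-PCR marker by which the study picked the days to sequence in these plants. CAP160 was the gene that the study's own selection, made on these libraries, kept in both pairs of cultivars, so the cultivar differences given here for CAP160 are not independent evidence of their direction.

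Leaves were taken from 4 potato cultivars of 2 related pairs, the drought-tolerant Gwiazda with the drought-sensitive Oberon and the drought-tolerant Tajfun with the drought-sensitive Owacja. Plants on day 0 were watered, with a soil water content of 0.361 m3/m3 in the labels, and plants on days 6 and 10 had received no water since day 0, with a sensor reading of -0.04 m3/m3 on day 6. The pots were dried from 3 weeks after tuberisation began, and the plants were treated against Colorado beetles and Phytophthora infestans. Each of the 12 groups of cultivar and day has 3 libraries from 3 plants, 36 in all. Watered plants of days 6 and 10 are not among the groups analysed here, so drought and the added days of age cannot be told apart. In whole leaves, a change in the number of cells of a type cannot be told apart from a change in RNA per cell either. The leaf label was not checked against marker genes, because the sources used here do not pair markers with these gene IDs.

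RAB18 (Responsive to ABA 18) belongs to the dehydrins, very hydrophilic proteins that plant cells build up when they lose water, in cold and in drying seeds, and that are thought to protect membranes and other proteins. Abscisic acid (ABA), the hormone that accumulates in a drying leaf and closes its stomata, induces the RAB18 gene of Arabidopsis. CAP160 was described as a cold acclimation protein of spinach, and the Arabidopsis gene that the study lists as its homologue, AT5G52300, is RD29B (also LTI65), a widely used ABA-responsive marker gene.

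The only sequences of these 2 genes used here are the primers by which the study followed them in RT-PCR, shown because the CAP160 reverse primer was not the same in the 2 cultivar pairs while the forward primer was. The 2 RAB18 primers are given in the order of the study's list, without a stated direction. No letters are in capitals, since no base is singled out, and no genome position was assigned to them.
RAB18, primer listed first: gtaatctgaggatgatgg
RAB18, primer listed second: gggagcttctctttgatctt
CAP160, forward, both pairs: ccgaaactcgcgaaactaag
CAP160, reverse, Gwiazda and Oberon: aaaccggagcaagttttcctg
CAP160, reverse, Tajfun and Owacja: tgcaaattcagttgctgagg

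The values are group means of normalized reads, as the authors computed them, in 18 tables that each compare 2 groups and were each normalized on their own. Values of single libraries are not in the tables used here, so no value below carries a replicate error. The authors' p-values were not used, so no difference is set here against the spread between plants. The means of one group add up to between 34212700 and 44685600 normalized reads. This sum depends on how each pair of groups was scaled and is not the sequencing depth. Each group stands in 3 tables, and its mean of RAB18 or CAP160 differed between them by at most 1.16 times, or 1.006 times as a share of the table's total. This spread comes from the scaling of the tables and says nothing of the plants. Levels set side by side for groups that share no table, as for any cultivar of one pair and any of the other, come from separately normalized tables. The 3 tables with Oberon on day 10 weight that group at 0.4 and the other at 0.6 in the authors' mean over all libraries, where the other 15 tables weight both at 0.5. A weight of 0.4 is that of 2 libraries beside 3, while the labels list 3 for Oberon on day 10, and how many plants the Oberon values of that day rest on was not settled. Since the length of neither gene is given in the sources used here, levels are compared between groups for each gene and not between the genes.

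RAB18 was present before drought and far more abundant on day 6 in all 4 cultivars. In Gwiazda its mean (median of the 3 tables) was 83.9, 2077 and 1029 normalized reads on days 0, 6 and 10. In Tajfun the means were 131.5, 4708 and 3476 on the same days. Both drought-tolerant cultivars thus had their highest value on day 6, and Tajfun kept most of it on day 10. The drought-sensitive Oberon had 57.4, 1950 and 876 reads on days 0, 6 and 10. Owacja had 62.2, 3736 and 1579 reads on these days. In every cultivar the lowest of the 3 days was day 0 and the highest was day 6.

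CAP160 spanned a wider range. In Gwiazda its mean was 179.6, 34096 and 7483 normalized reads on days 0, 6 and 10. In Tajfun it was 69.7, 47646 and 12962. Tajfun had the highest CAP160 mean of the 4 cultivars on days 6 and 10, and Gwiazda had the highest on day 0. Oberon had 24.0, 9608 and 2634 reads on days 0, 6 and 10. Owacja had 33.6, 29454 and 4823. The order of the days, day 6 above day 10 above day 0, was the one seen for RAB18.

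**Figure D1:**
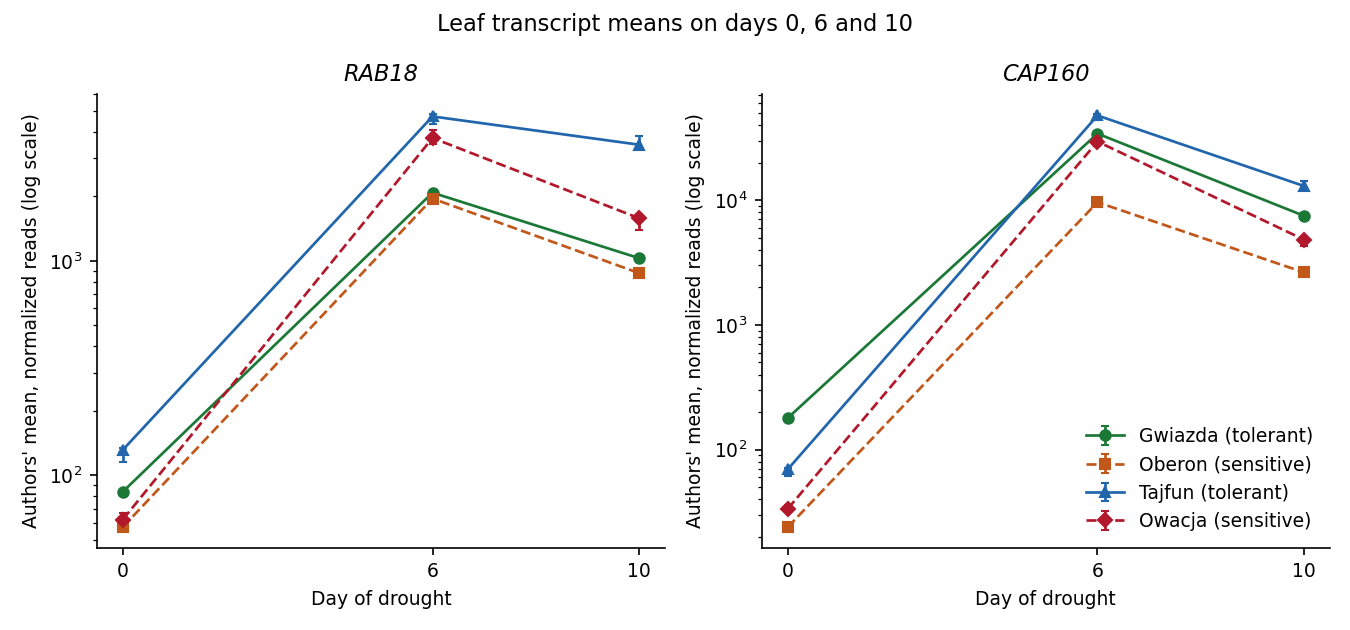
Authors' means of RAB18 (left) and CAP160 (right), in normalized reads on a log scale, against the day of drought in the 4 cultivars; points are medians over the 3 tables that hold each group, bars run from the lowest to the highest of these tables and are not replicate errors, and the 2 panels have separate axes. Both genes peak on day 6 in every cultivar, and CAP160 starts at 179.6 reads in Gwiazda against 24.0 in Oberon.

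Ordered by share of the table's total, RAB18 was highest in Tajfun on day 6, then in Owacja on day 6, where it was 1.19 times lower, and in Tajfun on day 10. Gwiazda and Oberon on day 6 followed with medians 1.001 times apart and ranges over the tables that overlapped, the only such case among the 11 neighbours in the RAB18 order. Owacja, Gwiazda and Oberon on day 10 came next, and below them stood the day 0 groups in the order Tajfun, Gwiazda, Oberon and Owacja. The step down to the highest day 0 group was 7.60 times. For CAP160 the order was Tajfun, Gwiazda and Owacja on day 6, Tajfun on day 10, Oberon on day 6, then Gwiazda, Owacja and Oberon on day 10, and Gwiazda, Tajfun, Owacja and Oberon on day 0. Neighbours in that order were 1.10 to 14.5 times apart, with the widest gap between Oberon on day 10 and Gwiazda on day 0. None of these CAP160 neighbours overlapped over the tables, but whether any of them differ beyond the spread between plants was not tested here.

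By day 6 RAB18 was 25.0 times its day 0 mean in Gwiazda (2094 against 83.9 reads in the table that holds both days). The same ratio was 33.8 in Oberon, 32.6 in Tajfun and 52.7 in Owacja. The log2 ratios were 4.64, 5.08, 5.03 and 5.72 in the same order of cultivars. For CAP160 the day 6 mean was 192 times that of day 0 in Gwiazda, 399 times in Oberon, 622 times in Tajfun and 769 times in Owacja, or log2 ratios of 7.58, 8.64, 9.28 and 9.59. Owacja, a drought-sensitive cultivar, had the highest ratio of both genes and Gwiazda, a drought-tolerant one, the lowest.

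For a background, a gene was counted as induced where its drought mean was at least 2-fold higher than on day 0 after 1 read was added to each mean. Genes with a mean of at least 100 reads in either group entered the count. On day 6, 9.59% of the genes that entered were induced in Gwiazda, 10.4% in Oberon, 12.1% in Tajfun and 12.6% in Owacja, and RAB18 and CAP160 were among them in all 4 cultivars, as the way they were chosen requires. Ranked by this ratio among the induced genes with at least 100 reads on day 6, CAP160 stood 9th of 1384 in Gwiazda. It was 13th of 1493 in Oberon, 11th of 1793 in Tajfun and 14th of 1850 in Owacja, or within the top 0.613% to 0.871%. These ranks depend on the read added to each mean, since with none CAP160 ranked 21st, 37th, 48th and 40th in Gwiazda, Oberon, Tajfun and Owacja, and with 10 it ranked 3rd, 6th, 2nd and 2nd. RAB18 was 94th in Gwiazda, 111th in Oberon, 104th in Tajfun and 85th in Owacja of the same numbers of genes, or within the top 4.60% to 7.44%. With a minimum of 1000 reads in place of 100 RAB18 ranked between 32 and 56, and with a minimum of 10 it ranked 145th in Gwiazda and 162nd in Tajfun. In all, 12056 genes had at least 100 reads on day 6 in every cultivar, and 643 of them were induced in all 4. A 16-fold or greater ratio in all 4 cultivars was found for 71 genes, RAB18 and CAP160 included.

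On day 10 both genes were still well above day 0. RAB18 had 11.9 times its day 0 mean in Gwiazda, 15.0 times in Oberon, 25.6 times in Tajfun and 22.4 times in Owacja. CAP160 had 40.4 times its day 0 mean in Gwiazda, 108 times in Oberon, 180.1 times in Tajfun and 127 times in Owacja. More genes were induced on that day than on day 6, 17.0% of those counted in Gwiazda, 17.5% in Oberon, 17.6% in Tajfun and 19.4% in Owacja, again with both genes among them in all 4 cultivars. CAP160 ranked 170th of 2522 induced genes in Gwiazda, 109th of 2567 in Oberon, 88th of 2654 in Tajfun and 117th of 2865 in Owacja. RAB18 ranked 378th, 326th, 257th and 320th in these cultivars. All 8 ranks stood further down the list than on day 6. The day 10 ranks moved with the same limits, to 31 for CAP160 in Tajfun with 10 reads added and to 605 for RAB18 in Gwiazda with a minimum of 10 reads.

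Between day 6 and day 10 both genes fell in every cultivar, CAP160 by a larger share of its reads than RAB18. CAP160 on day 10 was at 21.5% of its day 6 mean in Gwiazda (7339 against 34096 reads), 27.1% in Oberon, 29.8% in Tajfun and 16.8% in Owacja. RAB18 on day 10 was at 48.6% of its day 6 mean in Gwiazda, 44.4% in Oberon and 43.4% in Owacja. Tajfun stood apart with 81.0% (3813 against 4708 reads). A day 10 mean at least 2-fold lower than on day 6 was found for 10.8% of genes in Gwiazda, 11.2% in Oberon, 9.63% in Tajfun and 11.7% in Owacja. CAP160 was among these genes in all 4 cultivars and RAB18 in 3, the exception being Tajfun.

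The genes induced on day 6 declined less, as a whole, than these 2 genes. On day 10, 55.2% of them had a lower mean than on day 6 in Gwiazda, 65.2% in Oberon, 51.4% in Tajfun and 54.8% in Owacja. A mean at least 2-fold lower was found for 21.4%, 26.5%, 18.3% and 22.2% of them, larger shares than among all genes counted. The median log2 ratio of day 10 over day 6 among the induced genes was -0.14 in Gwiazda, -0.38 in Oberon, -0.02 in Tajfun and -0.10 in Owacja. In the same cultivars the ratio was -2.22, -1.89, -1.74 and -2.57 for CAP160 and -1.04, -1.17, -0.30 and -1.20 for RAB18. A stronger decline than that of CAP160 was found for 5.42% of the induced genes in Gwiazda, 9.04% in Oberon, 8.20% in Tajfun and 4.05% in Owacja. A stronger decline than that of RAB18 was found for 19.9%, 22.2%, 37.2% and 18.3%. Of the 643 genes induced in all 4 cultivars, 226 were lower on day 10 than on day 6 in all 4, RAB18 and CAP160 among them.

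**Figure D2:**
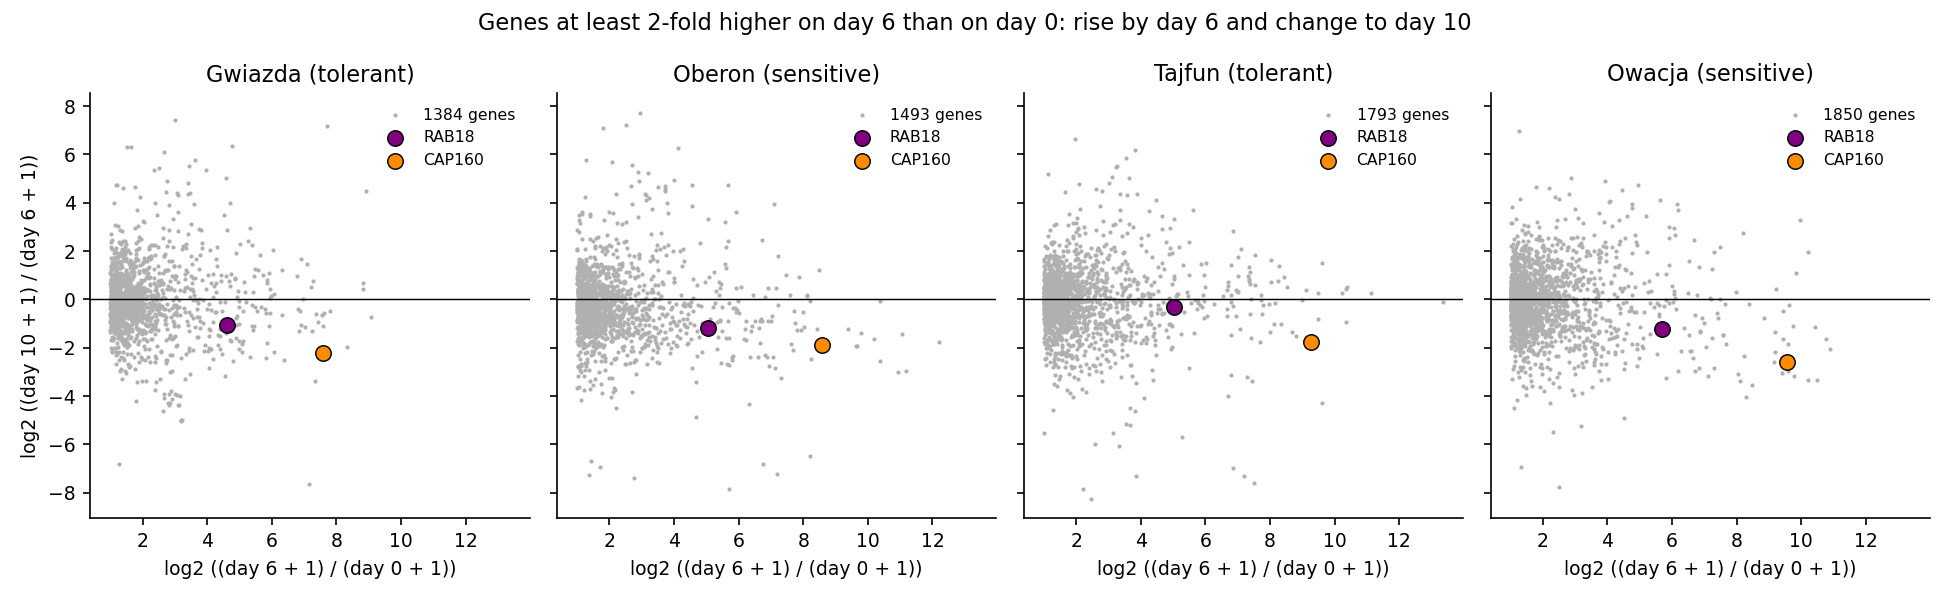
Each point is a gene with at least 100 normalized reads on day 6 and at least 2-fold more than on day 0 in that cultivar; the horizontal axis is the log2 ratio of day 6 over day 0 and the vertical axis the log2 ratio of day 10 over day 6, with 1 read added to each mean, and the line marks equal means on both drought days. CAP160 lies far to the right and below the line in all 4 panels, while RAB18 lies close to the line only in Tajfun, at -0.30 against -1.04 to -1.20 in the other 3 cultivars.

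Within the pairs, CAP160 had the higher mean in the drought-tolerant cultivar on every day, day 0 included. The study's selection admitted only genes whose day 0 difference was not significant by its own test, so the day 0 ratios of CAP160 are given as ratios of means and not as tested differences. On day 0 Gwiazda had 177.6 reads against 24.7 in Oberon, a ratio of 7.20. On day 6 the means were 33534 in Gwiazda and 9608 in Oberon, 3.49 times apart, and on day 10 they were 7483 in Gwiazda and 2674 in Oberon, 2.80 times apart. The ratio was thus highest in watered plants and lower on each later day. In the other pair Tajfun had 61.0 reads against 32.5 in Owacja on day 0, a ratio of 1.88 (log2 ratio 0.91). The ratio was 1.52 on day 6 (48820 in Tajfun and 32088 in Owacja) and 2.69 on day 10 (12962 in Tajfun and 4823 in Owacja), so that it was highest on day 10 here.

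RAB18 differed less between Gwiazda and Oberon. Gwiazda had 83.0 reads against 59.2 in Oberon on day 0, 1.40 times as many. On day 6 the 2 cultivars were nearly level, with 2040 reads in Gwiazda and 1950 in Oberon (ratio 1.05), and setting the study's 8 stable genes to equal levels turned this ratio to the other side of 1, with a log2 ratio of -0.02 in place of 0.07. On day 10 Gwiazda had 1029 and Oberon 889.8 reads, a ratio of 1.16. Between Tajfun and Owacja the ratio was 1.90 on day 0 (115.0 and 60.5 reads) and 1.19 on day 6 (4825 and 4064 reads). It was 2.20 on day 10, with 3476 reads in Tajfun and 1579 in Owacja.

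Of all genes counted, at least 2-fold higher means in Gwiazda than in Oberon were found for 4.93% on day 0, 6.12% on day 6 and 4.18% on day 10. CAP160 was among them on all 3 days and RAB18 on none. Higher means by the same measure in Tajfun than in Owacja were found for 4.56% of genes on day 0, 5.11% on day 6 and 9.73% on day 10, and both genes were among them on day 10 only. A mean 2-fold higher in both drought-tolerant cultivars on day 10, in a gene induced on day 6 in all 4 cultivars, was found for 21 genes. That is 0.174% of the 12056 genes with at least 100 reads on day 6 in every cultivar. CAP160 was one of these 21, as the study's selection of it in both pairs favours, and RAB18 was not. Only 3 genes (0.0249%) met this on days 6 and 10 together, neither RAB18 nor CAP160 among them.

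**Figure D3:**
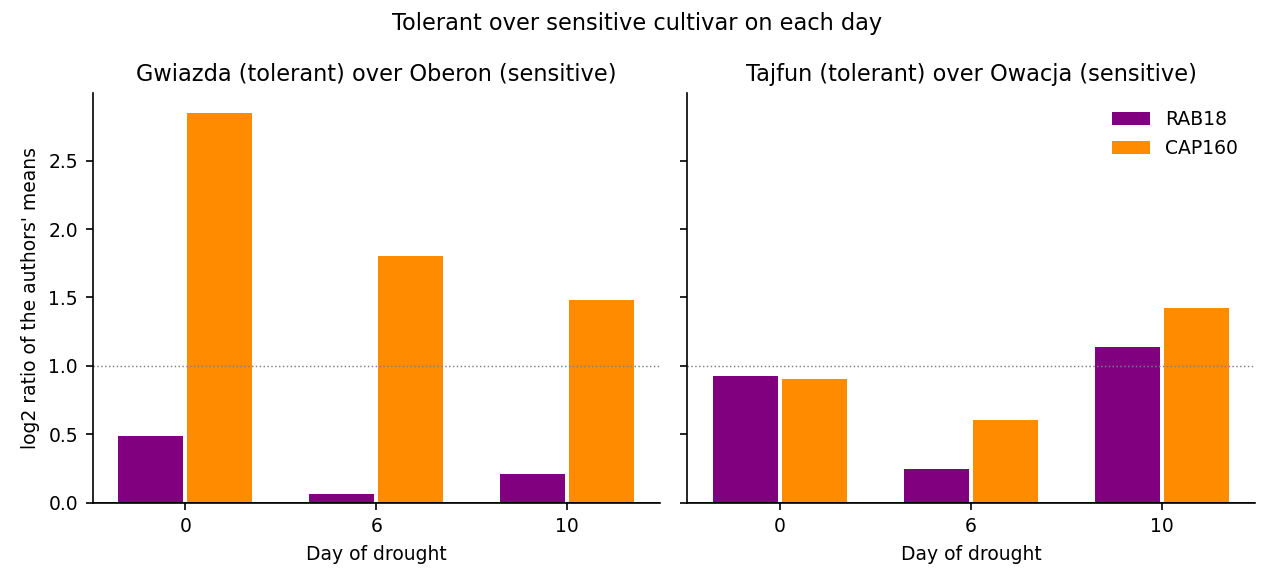
Bars give the log2 ratio of the authors' means, Gwiazda over Oberon (left) and Tajfun over Owacja (right), for RAB18 and CAP160 on days 0, 6 and 10, each from the table that holds both cultivars. The dotted line marks 2-fold, and no error bar is drawn because the values used here are group means. CAP160 is above 2-fold on all 3 days in the first pair, with the tallest bar on day 0 (2.85), and in the second pair both genes pass 2-fold on day 10 only (1.14 for RAB18 and 1.43 for CAP160).

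Both genes had the higher day 0 mean in the drought-tolerant cultivar of each pair, a difference not tested here, and in most settings a higher drought mean did not go with a larger ratio to day 0. On day 6 the log2 ratio of CAP160 to day 0 was 7.58 in Gwiazda and 8.64 in Oberon, a difference of -1.06 (Gwiazda minus Oberon). For RAB18 the same difference was -0.44. In the other pair the difference on day 6, Tajfun minus Owacja, was -0.31 for CAP160 and -0.69 for RAB18. On day 10 Gwiazda minus Oberon gave -1.42 for CAP160 and -0.33 for RAB18. Tajfun minus Owacja on day 10 gave 0.51 for CAP160 and 0.19 for RAB18. So both genes had the larger ratio to day 0 in the drought-sensitive cultivar in 3 of the 4 settings, and in the drought-tolerant one in Tajfun on day 10.

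The same comparison over all genes gives the background. Among 888 genes induced on day 6 in both Gwiazda and Oberon, 60.9% had the smaller ratio in Gwiazda, with a median difference of -0.15. Of these 888 genes, 16.1% had a lower difference than CAP160 and 34.6% a lower one than RAB18. Among 1847 genes induced on day 10 in both, 50.2% had the smaller ratio in Gwiazda. Of these, 5.41% had a lower difference than CAP160 and 27.0% a lower one than RAB18. For Tajfun and Owacja 58.6% of 1208 genes had the smaller ratio in Tajfun on day 6 and 54.5% of 1796 genes on day 10. On day 6, 34.9% of those 1208 genes had a lower difference than CAP160 and 17.1% a lower one than RAB18. On day 10, 80.5% of those 1796 genes had a lower difference than CAP160 and 65.8% a lower one than RAB18. The day 0 mean enters both the day 0 level and the ratio. Among genes induced in both Gwiazda and Oberon with the higher day 0 mean in Gwiazda, the ratio was smaller in Gwiazda for 75.0% of 551 genes on day 6 and 71.8% of 901 genes on day 10. Where Tajfun had the higher day 0 mean, the ratio was smaller in Tajfun than in Owacja for 77.0% of 635 genes on day 6 and 67.3% of 857 genes on day 10.

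The balance of the 2 genes within a group also moved with drought. Such a ratio of reads depends on the unknown lengths of the 2 genes, but its change between groups does not. In Gwiazda there were 2.14 CAP160 reads per RAB18 read on day 0, against 0.418 in Oberon, 0.530 in Tajfun and 0.539 in Owacja. By these group means Gwiazda stood apart from the other 3 cultivars in watered plants already, but this was not tested. The study's selection of CAP160 required a day 0 difference from Oberon that was not significant by its own test. By day 6 the ratio of CAP160 to RAB18 reads was 7.69 times its day 0 value in Gwiazda, 11.8 times in Oberon, 19.1 times in Tajfun and 14.6 times in Owacja. From day 6 to day 10 it changed by a factor of 0.443 in Gwiazda, 0.610 in Oberon, 0.368 in Tajfun and 0.387 in Owacja. On day 10 it was 7.28 in Gwiazda and between 3.01 and 3.73 in the other 3 cultivars.

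**Figure D4:**
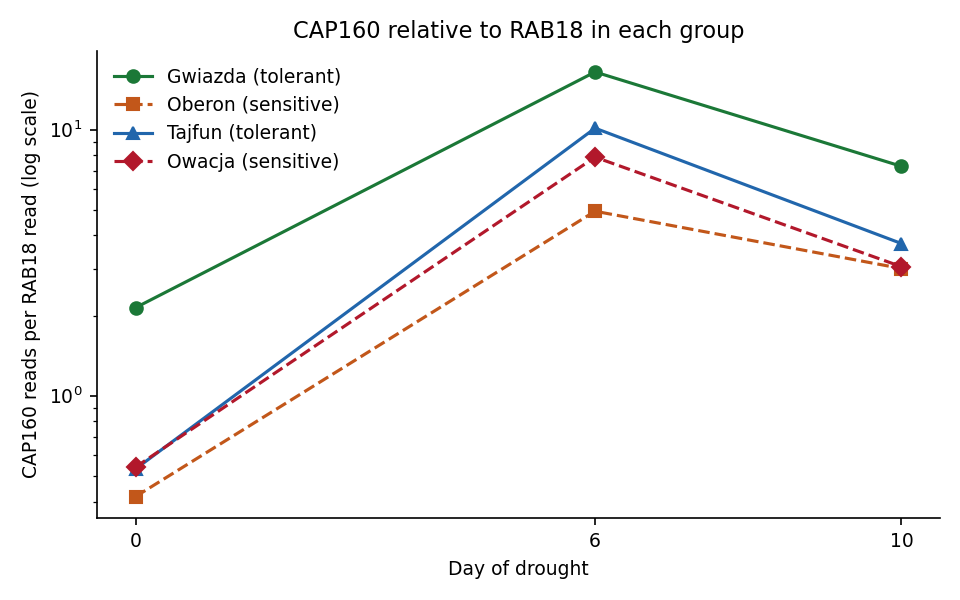
Normalized CAP160 reads per RAB18 read (log scale) against the day of drought in each cultivar, from the authors' means; heights depend on the lengths of the genes and only their changes are compared. The ratio peaks on day 6 in all 4 cultivars, and Gwiazda is the highest on every day, at 2.14 on day 0 against 0.418 to 0.539 in the other 3. No difference between cultivars was tested.

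The study lists 4 other genes whose Arabidopsis homologues are tied to drought, heat, salt, osmotic stress or ABA, and it selected these too on the present libraries for a difference between cultivars and for a change from day 0 in the drought-tolerant one. The homologue of alcohol dehydrogenase 1 (PGSC0003DMG400024849), an enzyme of fermentation that also responds to ABA in Arabidopsis, was listed at 0 on day 0 in Oberon, Tajfun and Owacja and at 18.1 reads in Gwiazda. On day 6 it had 1089 reads in Gwiazda, 257 in Oberon, 1209.6 in Tajfun and 858 in Owacja. Its rank among the induced genes is not given, since a day 0 mean of 0 leaves it to the read added. Its day 10 mean was 0.285 times that of day 6 in Gwiazda, 0.453 times in Oberon and 0.470 times in Owacja, but 1.19 times in Tajfun, the cultivar in which RAB18 also kept most of its reads.

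The homologue of the Arabidopsis late embryogenesis abundant gene EM1 (PGSC0003DMG400008497) had day 6 means of 263, 268, 432 and 109.9 reads in Gwiazda, Oberon, Tajfun and Owacja, against 7.39, 9.35, 0.739 and 2.27 on day 0. Like the 2 dehydration genes it was lower on day 10 in every cultivar, with the smallest decline in Tajfun, where it had 415 reads on day 10 against 467 on day 6. A heat shock protein gene of the HSP20 family (PGSC0003DMG400039484), a small chaperone, had the opposite order of drought days, since its day 10 mean was 25.1 times that of day 6 in Gwiazda, 20.4 times in Oberon, 12.8 times in Tajfun and 4.72 times in Owacja. The transporter gene PGSC0003DMG400019233, whose Arabidopsis homologue is AT3G20660, was induced on day 6 in Oberon and Tajfun but not in Gwiazda or Owacja. Its day 10 mean was 0.615 times that of day 6 in Gwiazda, 0.249 times in Oberon, 0.475 times in Owacja and 1.12 times in Tajfun. Of these 4 genes, 3 were induced on day 6 in all 4 cultivars, where 5.33% of all genes counted were, but the study's selection required a change with drought and so favours such a count.

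Cyclophilin (PGSC0003DMG400001630), the gene against which the study read its RT-PCR, was not level in every cultivar. Its day 6 mean was 1.35 times that of day 0 in Gwiazda, 1.96 times in Oberon, 0.894 times in Tajfun and 0.591 times in Owacja. On day 10 it was 2.38 times its day 0 mean in Gwiazda, 2.28 times in Oberon, 0.983 times in Tajfun and 0.862 times in Owacja. The day 6 ratios of RAB18 and CAP160, 25.0 and above, lie outside these values. Between cultivars, cyclophilin in Gwiazda over Oberon was 1.11, 0.778 and 1.20 on days 0, 6 and 10. In Tajfun over Owacja it was 1.02, 1.55 and 1.18. On day 6 the latter exceeded CAP160 (1.52) and RAB18 (1.19). In Gwiazda over Oberon it lay further from 1 than RAB18 on days 6 and 10 (1.05 and 1.16). The other cultivar ratios of both genes lay further from 1 than that of cyclophilin. The study's 8 stable genes had log2 ratios between -0.32 and 0.61 over the 18 tables, and the median of all genes with at least 100 reads in both groups lay between -0.03 and 0.08.

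The genes most alike to each member were sought over the 8 log2 ratios of days 6 and 10 against day 0 in the 4 cultivars, with 1 read added to each mean, among 16582 other genes. The points share the day 0 groups and the measure is a description. Nearest to RAB18 was PGSC0003DMG402010918, with a root mean square difference of 0.50 and log2 ratios of 4.39 in Gwiazda, 5.43 in Oberon, 5.56 in Tajfun and 5.81 in Owacja on day 6. Its day 0 means were 3.13 to 8.49 reads, so its ratios depend on the read added. Only this gene lay within 0.5 of RAB18, and 20 genes lay within 1. Nearest to CAP160 was PGSC0003DMG400011438, with a difference of 0.81, and 2 genes lay within 1 of CAP160. The day 0 means of PGSC0003DMG400011438 were 2.65 to 10.0 reads, so its ratios depend on the read added too. In Tajfun PGSC0003DMG400011438 had more reads on day 10 than on day 6, with log2 ratios to day 0 of 8.96 on day 10 and 8.24 on day 6, where CAP160, by the same measure, had 7.47 on day 10 and 9.26 on day 6. RAB18 and CAP160 themselves were 3.14 apart by this measure, CAP160 being the 855th nearest gene to RAB18 and RAB18 the 88th nearest to CAP160, while the Pearson correlation of their 8 ratios was 0.95. The sources used here give no name for either neighbour.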

How the data were processed

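Total leaf RNA was sequenced by the authors as strand-specific paired-end Illumina libraries, mapped with TopHat2 to the PGSC pseudomolecules 4.03 and quantified with Flux Capacitor 1.6.1, and DESeq normalized 1 pair of groups at a time. The deposited signal is the group mean of these normalized reads per gene, so replicate values were already averaged by the authors. The deposited tables also hold the authors' own fold changes, p-values and adjusted p-values, which were not used. Columns were assigned to groups by the table names and the sample labels, and in 36 of 36 columns the nearest other column was of the same group.

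Ratios were taken within a table with no read added. Counts of genes, ranks and the most alike genes used log2(mean + 1), a minimum mean of 100 reads and, for induced genes, a 2-fold limit (Python 3.11.15, pandas 2.3.3, NumPy 2.4.6, matplotlib 3.10.9); the code was tested on simulated data. Named were RAB18, CAP160, the 4 stress and ABA homologues, cyclophilin and the gene most alike to each member, with the 8 stable genes as a range. The members and lists were chosen with earlier results of these data known. Of 25289 gene IDs, 0 matched the RefSeq names at hand, so no positions, promoters or proteins are given. Alternatives changed the scaling, the pseudocount, the minimum and the table used.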

Additional observations from a re-analysis of the deposited data

How the results depend on the processing

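A ratio was taken as kept when it stayed within 1.5 times the reported one, and a rank, share or distance likewise. All ratios of RAB18 and CAP160 between days kept their size and direction under the 3 other scalings, both pseudocounts and chaining through the remaining day. The differences of the day ratios between cultivars kept their direction under 5 alternatives chosen after seeing the data. The limit of 1.5 times is wider than most of these differences, so it cannot judge their size. With 10 reads added, Gwiazda minus Oberon for CAP160 went from -1.06 to -0.63 on day 6 and -1.42 to -0.99 on day 10. Tajfun minus Owacja for CAP160 went from -0.31 to -0.14 and from 0.51 to 0.69 on these days. Equal totals shifted ratios by -0.13 to 0.39 on the log2 scale, and 10 reads added to each mean by -0.50 to 0.01. Of the ratios between cultivars 1 reversed, RAB18 in Gwiazda over Oberon on day 6 with the stable genes set to equal levels, at a log2 ratio of -0.022. Ranks depend on the limits. With a minimum of 1000 reads the rank of RAB18 was 40 and 189 in Gwiazda on days 6 and 10, 56 in Oberon on day 6, 32 and 121 in Tajfun and 40 and 141 in Owacja, while in Oberon on day 10 it fell short of that minimum and has no rank. CAP160 then ranked 3 and 86 in Gwiazda, and 49 in Oberon, 39 in Tajfun and 41 in Owacja on day 10. With a minimum of 10 or with none RAB18 ranked 145 and 605 in Gwiazda, 162 in Tajfun on day 6, and 555 in Oberon and 485 in Owacja on day 10. With 10 reads added RAB18 ranked 70 in Oberon, 55 in Tajfun and 47 in Owacja on day 6, and CAP160 ranked 3 and 101 in Gwiazda, 6 and 54 in Oberon, 2 and 31 in Tajfun and 2 and 40 in Owacja. With no read added, which puts genes at 0 on day 0 first, CAP160 ranked 21, 37, 48 and 40 in Gwiazda, Oberon, Tajfun and Owacja on day 6. At 4-fold in place of 2-fold, the shares of genes induced on days 6 and 10 were 3.42% and 6.58% in Gwiazda, 3.94% and 6.94% in Oberon, 4.22% and 6.93% in Tajfun and 4.48% and 8.39% in Owacja. The shares lower on day 10 than on day 6 were 2.59%, 2.63%, 2.83% and 2.93% in these cultivars. Shares higher in Gwiazda than in Oberon were 1.19%, 1.61% and 1.10% on days 0, 6 and 10, and in Tajfun than in Owacja 1.18%, 1.31% and 2.19%. With a minimum of 10 reads the shares between cultivars at 2-fold were 8.78%, 10.8% and 7.60% for Gwiazda over Oberon, and 8.18% and 9.01% for Tajfun over Owacja on days 0 and 6. By Pearson correlation in place of distance the gene nearest to RAB18 took place 537 and the gene nearest to CAP160 place 772. The cause of these shifts was not tested beyond the construction of each alternative.

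No paired analysis was possible because the tables hold group means only, and for the same reason no replicate was left out. The authors' own p-values were not used, so no result is tested here. The lowest drought mean of RAB18 or CAP160 was 861 normalized reads, for RAB18 in Oberon on day 10. CAP160 on day 0 rests on 23.9 to 185.3 normalized reads per group mean. In the study's own summary, a Gwiazda library of day 6 had the largest share of reads mapped to multiple loci. Every Oberon library there had a smaller share of mapped reads than any Gwiazda library. Whether this bears on the means was not tested.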
